A study of Drosophila melanogaster with 3 samples.

Results

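The Jun N-terminal kinase (JNK) cascade, its AP-1 transcription factors and the stress-response factor *Atf3* were examined as 10 genes among the 8247 genes measured in wounded and unwounded *Drosophila melanogaster* embryos. The genes are *egr*, *msn*, *slpr*, *hep*, *bsk*, *Jra*, *kay*, *puc*, *Atf3* and *Ets21C*. They were chosen by name, with earlier results of these data known. Their 13 probes are those that the array's annotation assigns to exactly 1 of these genes. All 10 genes had at least 1 such probe with a value on every array, so none was lost to a filter. Of these genes, 8 had 1 probe and 2 had several, *hep* with 3 spots and *bsk* with 2.

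Wild-type embryos injured by laser ablation were compared with uninjured wild-type embryos by hybridising both to the same array, on 3 arrays named A, B and C. RNA of wounded embryos carried the red dye Cy5 and RNA of unwounded embryos the green dye Cy3 on each array. Embryo stage, time after wounding, number of wounds and number of embryos in a sample were not stated. Whether the 3 arrays hold RNA of independent embryo collections is not stated either, so that their spread, and each p-value made from it, may be technical.

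Each value is a ratio of the 2 colours at a spotted cDNA clone, given here as log2, so that 0 means equal colour and each unit is a doubling. The direction of the ratio is not settled by the labels. The series title puts wounded embryos first and the sample titles put unwounded embryos first, and the deposited values all carry a minus sign, which was removed. Results are therefore worded as high or low ratio. If the ratio is wounded over unwounded, a low ratio is a lower transcript level in wounded embryos, and if it runs the other way each statement turns round. The dyes were never exchanged, so a dye effect at a probe cannot be told apart from wounding. In whole embryos, fewer cells of a type and less RNA per cell cannot be told apart either.

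JNK signalling is a relay of kinases that activate one another by phosphorylation. The tumour necrosis factor homologue encoded by *egr* is one of its triggers, and *msn*, *slpr*, *hep* and *bsk* encode successive kinases, of which *bsk* is JNK itself. JNK acts on the AP-1 factors encoded by *Jra* (Jun) and *kay* (Fos), and these switch on target genes such as *puc*, whose phosphatase product turns JNK off again. In the fly embryo the cascade is best known from dorsal closure, in which epidermal sheets are drawn over the back, and from the epidermis at the edge of wounds, where expression of *puc* is a common readout.

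*Atf3* had a low ratio on all 3 arrays, and it was the only gene of the 10 with a probe past the test. Its ratios on arrays A to C were 0.781, 0.733 and 0.698, with a geometric mean of 0.737. The other 12 probes did not pass, and their mean log2 ratios lay between −0.16 and 0.12. These included *puc*, the feedback phosphatase, at 0.12 ± 0.07 (SD, n = 3) and both AP-1 genes, *Jra* at −0.04 ± 0.10 and *kay* at −0.00 ± 0.12 (SD, n = 3 each). Thus 1 of 13 probes was past an adjusted p of 0.05 in limma, with a low ratio. Over all 11887 tested probes 184 were past it, which is 1.55%, made up of 0.513% with a high ratio and 1.03% with a low ratio. At an unadjusted p under 0.05, 1 of the 13 probes was counted, again *Atf3*, against 18.4% of all probes.

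*Atf3* encodes a basic leucine zipper (bZIP) protein that can pair with Jun and acts in stress, immune and metabolic responses. Its single probe, GH24653, had log2 ratios of −0.36 (array A), −0.45 (array B) and −0.52 (array C). All 3 values lay on the same side of 0, and *Atf3* had the lowest gene mean of the 10 genes on every array. The mean was −0.44 ± 0.08 (SD, n = 3), with a 95% interval of −0.59 to −0.29 and a limma adjusted p of 0.0466. Of all tested probes 1.92% lay below it. It ranked 134 by p among the 11887 probes. Of the 229 probes with a mean at or below that of *Atf3*, itself included, 124 were not past the threshold.

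The call on *Atf3* lay close to the threshold, as did all 184 calls, whose adjusted p ran from 0.0441 to 0.0499. The low ratio itself kept its sign under 14 of 14 alternative fits of the probes, which a value below 0 on every array makes likely in advance. On the log2 scale it ranged from −0.48 to −0.40. The adjusted p ranged from 0.0339 with array weights to 0.235 without array A, and it was above the threshold in 8 of the 14. Leaving out array A, B or C gave limma adjusted p-values of 0.235, 0.0800 and 0.101. When all gene means were fitted in place of probes, *Atf3* had a limma adjusted p of 0.0389, where 1.96% of genes were past the threshold.

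**Figure D1:**
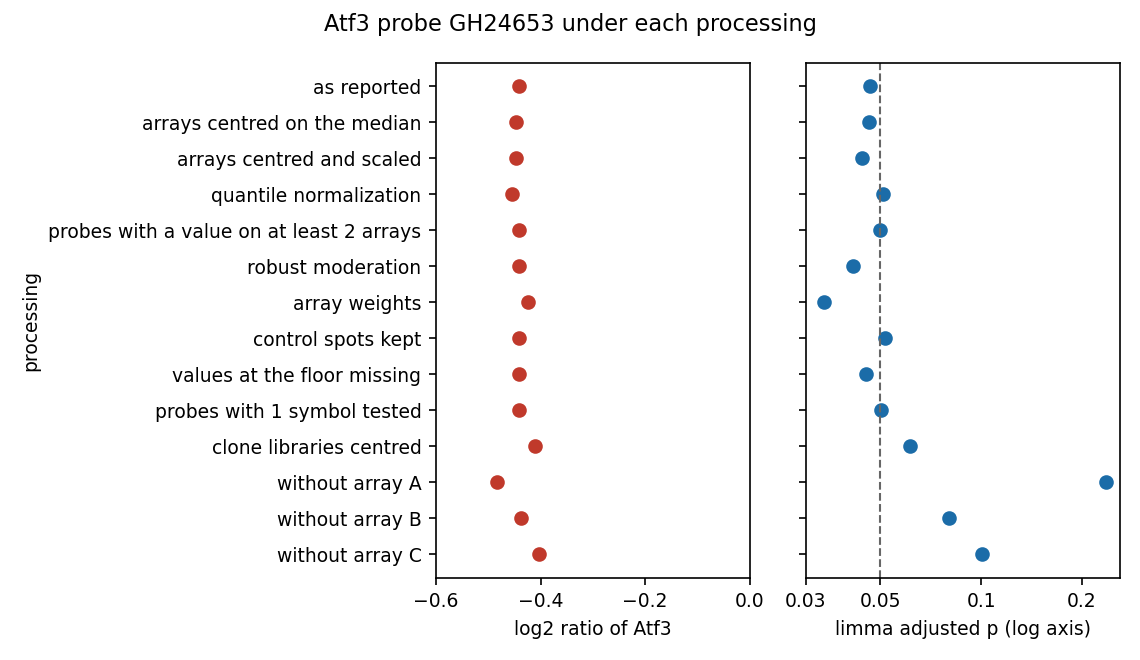
Log2 ratio of the *Atf3* probe (left, x axis) and its limma adjusted p (right, log x axis) as reported and under each alternative that keeps the log2 scale and the threshold, 1 point per fit. The log2 ratio stays between −0.48 and −0.40, while the adjusted p lies on both sides of the dashed line at 0.05 and is highest without array A, at 0.235.

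The *Atf3* probe is a clone of the GH cDNA library, and low calls were more frequent among GH clones. These clones made up 18.2% of tested probes and 51.2% of the low calls, while their median log2 ratio was −0.03. With each library centred on each array, *Atf3* was at −0.41 with a limma adjusted p of 0.0614, and 0 of 11887 probes passed, with 2203 at an unadjusted p under 0.05. Spots named for plant genes, which serve as controls, had a median of −0.23, and 36 of the 119 with 3 values were at or below the mean of *Atf3*. No spot brightness was used here, so how far the *Atf3* spot stood above background is unknown. The part of the library and of spot brightness in the *Atf3* result was not tested. The other GH clone among the 13 probes, that of *slpr*, had 0.12.

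*egr*, the ligand, had −0.05 (array A), −0.12 (array B) and −0.12 (array C). All 3 values were slightly below 0. The mean was −0.10 ± 0.04 (SD, n = 3) and did not pass (limma adjusted p = 0.424). *msn*, a Ste20-like kinase at the top of the kinase relay, had −0.11, 0.01 and −0.38 in the same order of arrays. It was the most variable of the 13 probes, with array C apart from the others, and its mean of −0.16 ± 0.20 (SD, n = 3) was smaller than its spread. *slpr*, a mixed-lineage kinase that phosphorylates the kinase encoded by *hep*, had 0.04, 0.16 and 0.17. It had the highest mean of the 10 genes at 0.12 ± 0.07 (SD, n = 3), on the opposite side of 0 from *msn*, and did not pass either (limma adjusted p = 0.341).

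*hep*, the kinase that activates JNK, was measured at 2 spots of clone RE25570 and at clone LD46661. From array A to array C, clone LD46661 had 0.01, 0.10 and −0.06, and clone RE25570 had 0.04, −0.06 and 0.11. Arrays B and C thus ordered these clones in opposite ways. The re-amplified spot of RE25570 had 0.02, 0.07 and 0.06. Averaged over the 3 arrays the spots lay within 0.03 of each other, and the gene mean was 0.03 ± 0.01 (SD, n = 3). *bsk*, which encodes JNK, had −0.02, 0.08 and −0.02 at clone HL02677 and −0.09, −0.03 and −0.13 at clone RE08746. The clones differed by 0.09 in their means, and neither passed. Its gene mean was −0.04 ± 0.05 (SD, n = 3).

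The AP-1 genes gave no common direction. *Jra* had 0.07 (array A), −0.05 (array B) and −0.14 (array C). *kay* had 0.02, −0.13 and 0.10. Both crossed 0 between arrays, and on array C they lay on opposite sides of it. Neither mean exceeded its SD. For *Jra* the 95% interval was −0.20 to 0.12 and for *kay* −0.17 to 0.16.

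Like *Atf3*, *puc* and *Ets21C* are known in the fly as genes that respond to JNK. From array A to array C, *puc* had 0.12, 0.05 and 0.19, positive each time. Its 95% interval, −0.03 to 0.27, allows a ratio between 0.98 and 1.20 (limma adjusted p = 0.358). *Ets21C*, an ETS-domain transcription factor induced by stress and infection, had 0.12, 0.07 and 0.09. It was positive on every array with a small spread, 0.09 ± 0.03 (SD, n = 3), yet did not pass (limma adjusted p = 0.423). These values lay on the opposite side of 0 from those of *Atf3*, and whichever way the ratio runs, *Atf3* and this pair therefore had opposite signs on all 3 arrays. The differences between them were not tested.

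**Figure D2:**
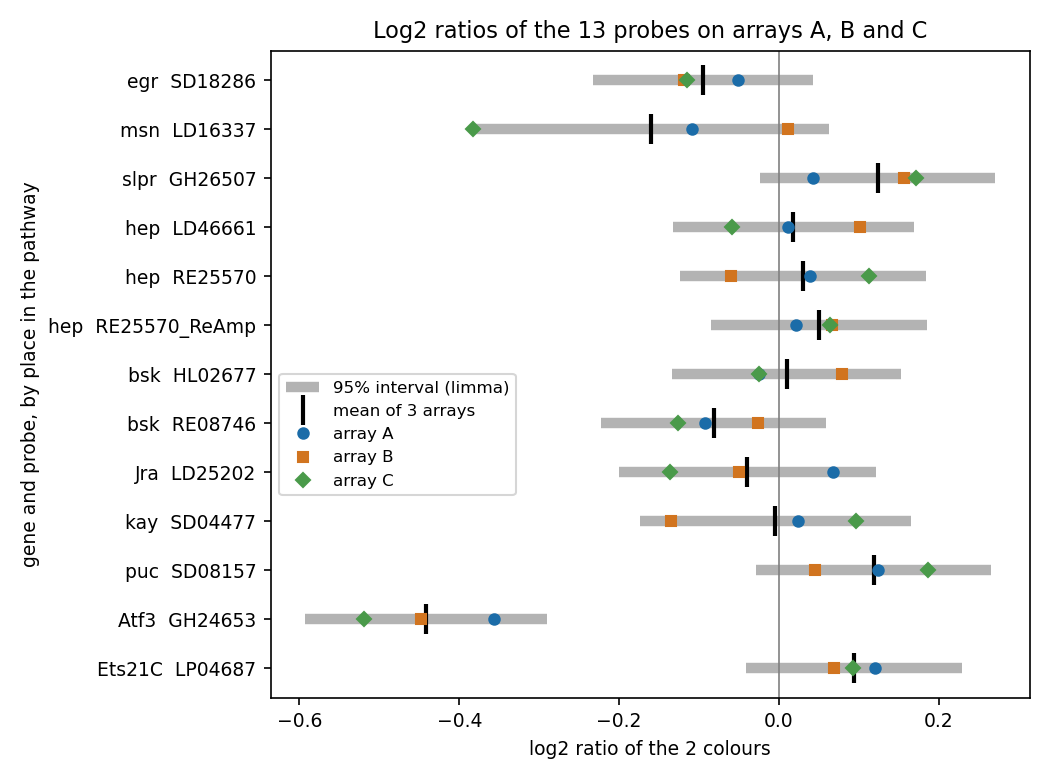
Log2 ratio (x axis) of each of the 13 probes on arrays A, B and C (coloured points), with the mean (black tick) and the 95% interval from limma (grey bar), genes listed by their place in the pathway. Only the interval of *Atf3*, −0.59 to −0.29, excludes 0.

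For the 12 probes other than *Atf3* the 95% intervals all included 0. The lowest limit was a ratio of 0.767, for *msn*, and the highest was 1.21, for *slpr*. These intervals are not adjusted for the number of probes. The SD over arrays of the 13 probes had a median of 0.07, against 0.11 for all tested probes, and a median size of the mean of 0.08, against 0.08. Of the 13 probes, 7 had the same sign on all 3 arrays, against 41.7% of all probes. By mean log2 ratio 6 of the 13 lay in the middle 50% of all probes, between −0.07 and 0.09, and 12 lay in the middle 90%, between −0.28 and 0.27.

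Ordered by gene mean the genes ran *slpr*, *puc*, *Ets21C*, *hep*, *kay*, *bsk*, *Jra*, *egr*, *msn* and *Atf3*. Neighbours in this order lay closer together than the larger of their SDs in 7 of 9 steps. The exceptions were the step from *Ets21C* to *hep* and the step from *msn* to *Atf3*, which was 0.28. The median of the 10 gene means was −0.02, against −0.00 for all 8247 genes. Taken by array it was 0.02 (A), 0.02 (B) and −0.02 (C), with 6, 6 and 5 of the 10 genes above 0. Arrays A and C gave the same sign for 11 of the 13 probes, against 66.0% of all probes, arrays A and B for 8, against 59.8%, and arrays B and C for 8, against 57.2%.

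**Figure D3:**
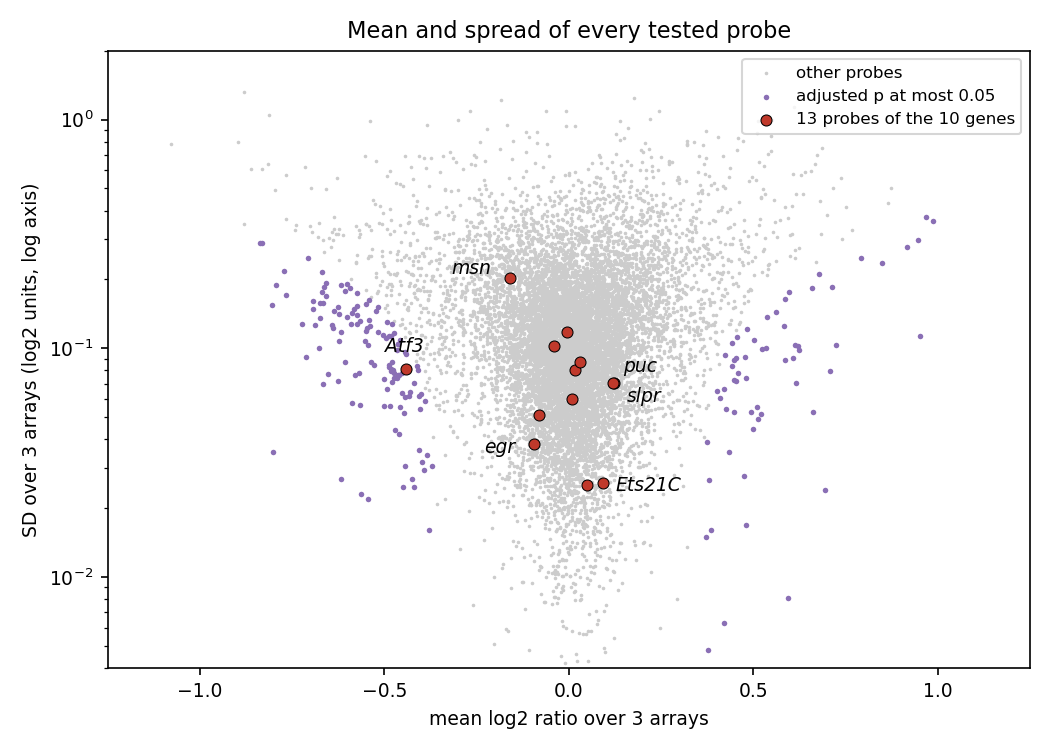
Mean log2 ratio over 3 arrays (x axis) and SD over the arrays (y axis, log scale) of the tested probes, with calls in purple and the 13 probes of the 10 genes in red; 20 of 11887 probes lie outside the axes. *Atf3* lies within the band of low calls, and the other 12 probes lie between −0.16 and 0.12, among the bulk of uncalled probes.

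Other genes tied to the cascade were described from 6 further lists, which held 73 measured genes besides the 10. Of these, 2 genes had a probe past the threshold with a high ratio and 1 with a low ratio, which is 4.11%. Over all genes 1.73% had such a probe, 0.534% high and 1.2% low. The median of the 73 gene means was 0.04. The lists were chosen with earlier results of these data known, and were described and not tested as sets.

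Among upstream receptors, kinases and adaptors 0 of 18 measured genes passed, with 3 of 20 probes at an unadjusted p under 0.05 in limma, and the median was 0.03. The smallest p-values belonged to *Tab2*, which links the kinase Tak1 to its activators, and to *Crk*, an adaptor that couples receptors to Rac. From array A to array C, *Tab2* had 0.93, 0.31 and 0.56, high on each but spread widely (0.60 ± 0.31, SD, n = 3; limma adjusted p = 0.0802). *Crk* had 0.18, 0.24 and 0.30, with a limma adjusted p of 0.112. The receptors of the ligand encoded by *egr* did not stand out. *wgn* had means of 0.07 and 0.07 at its 2 clones, and *grnd* had 0.21 on array A and −0.01 on array C but was listed at the floor of the deposited scale on array B. Both receptors were chosen after their values were seen.

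Among inhibitors and modulators 0 of 14 genes passed, with 2 of 18 probes at an unadjusted p under 0.05 in limma. Their median was 0.04, and −0.00047 without array B. *raw*, which restrains JNK in the embryonic epidermis, had −0.16 ± 0.09 at clone GH23250 (SD, n = 3). Its other clone had means of 0.08 and 0.04 at 2 spots, so the clones disagreed in sign. *rib*, a BTB-domain factor needed for dorsal closure, had 0.20 ± 0.10 (SD, n = 3; limma adjusted p = 0.195).

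The list of genes that respond to JNK in closure, wounding or cell death held 22 measured genes. Of these 1 had a high and 1 a low ratio, against 0.534% and 1.2% of all genes. At an unadjusted p under 0.05 in limma there were 10 of 31 probes, against 18.4% of all probes. The median was 0.05, and 17 of the 22 gene means were positive, against 4117 of all 8247. *Gadd45*, which acts upstream of stress-activated kinases, had 1.10, 0.63 and 0.83 at clone RH70774 and 0.46, 0.32 and 0.20 at clone RE18426, again from array A to array C. Both clones were high on every array, and the first, a clone of the RH library, passed (limma adjusted p = 0.0441). *Fhos*, a formin, had −0.69, −0.42 and −0.46 at clone LD24110, which passed (limma adjusted p = 0.0468), and 0.30, 0.52 and 0.30 at clone SD08909, which did not. Its clones therefore pointed in opposite directions on all 3 arrays. *Mmp2*, a matrix metalloproteinase, had −0.30, −0.29 and −0.47 and a limma adjusted p of 0.0680, and *GstD1*, a detoxification enzyme, had −0.19 at each of 2 clones. On the high side *scb*, an integrin subunit, had 0.25, 0.22 and 0.19 (limma adjusted p = 0.120), and *chic*, the profilin gene, had means of 0.21 and 0.07 at its 2 clones. These 4 were picked with their values in view. *dpp*, the secreted signal that JNK maintains at the leading edge, had 0.17, −0.06 and 0.02, with no common sign, and was also chosen after its values were seen. The wound genes *Mmp1*, *rpr*, *hid*, *Ilp8* and *upd3* were not analysed here.

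*Atf3* was the bZIP gene past the threshold. Among the other bZIP factors 0 of 12 measured genes passed, with 2 of 17 probes at an unadjusted p under 0.05 in limma, and their gene means lay between −0.09 and 0.17. *slbo*, a C/EBP factor of migrating cells, had 0.28, 0.48 and 0.44 at clone RE37385 (limma adjusted p = 0.0594), while a re-amplified spot of the same clone had 0.01, −0.20 and 0.04. *vri*, a factor of growth and the circadian clock, had −0.20 at clone LP11724 against 0.07 at each of 2 other clones. Those 2 clones were positive on array B alone, at 0.39 and 0.41, and negative on arrays A and C.

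Among the ETS factors other than *Ets21C*, 1 of 5 measured genes had a high ratio, against 0.534% of all genes. *Ets96B* had 0.61, 0.68 and 0.40 at clone RH09633 (0.56 ± 0.14, SD, n = 3; limma adjusted p = 0.0444). A re-amplified spot of that clone had 0.62, 0.41 and 0.32 (limma adjusted p = 0.0627), so both spots were high on every array. A different clone, SD17695, had −0.04, 0.03 and 0.13. The clones of *Ets96B* and *Gadd45* past the threshold are both from the RH library, whose clones made up 22 of the 61 high calls. With libraries centred neither passed, as for every probe, and the part of the library in their ratios was not tested further. Among other MAP kinases and their kinases 0 of 4 measured genes passed, with 0 of 4 probes at an unadjusted p under 0.05 in limma. *Mekk1* had 0.17 ± 0.20 and *Dsor1* −0.04 ± 0.03 (SD, n = 3 each).

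**Figure D4:**
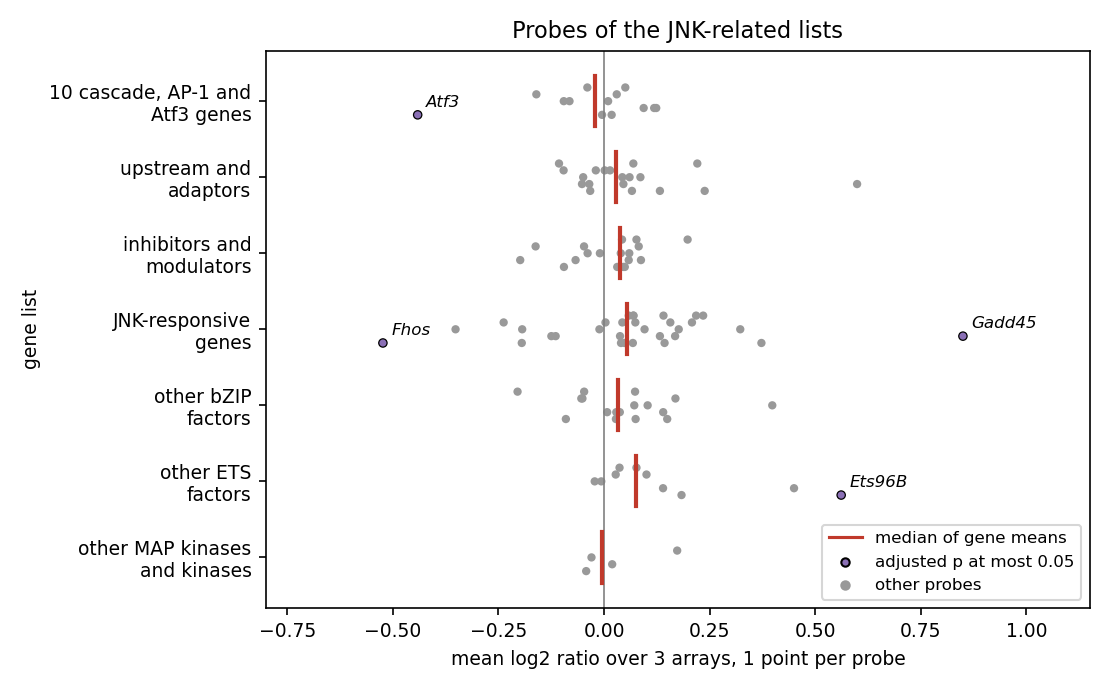
Mean log2 ratio over 3 arrays (x axis) of each probe in the 7 gene lists (rows), with the median of gene means as a red bar and calls in purple. *Atf3* and *Fhos* are the low calls and *Gadd45* and *Ets96B* the high ones, and the list medians lie between −0.02 and 0.08. The probe of *grnd*, at the floor on array B, lies outside the axis.

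How far single spots repeat bears on genes read from 1 probe, as *Atf3* was. Over all tested probes, 408 pairs of spots of the same clone differed in mean log2 ratio by a median of 0.16. They shared their sign in 61.3% of pairs. The spots of such a pair were told apart by a mark in the name, such as re-amplified. They need not be prints of the same amplified product, and how far prints of the same product repeat was not measured. The 90th percentile of that difference was 0.54, and the Pearson correlation of the paired means was 0.08. Different clones of 1 gene, in 1669 pairs, differed by a median of 0.08 and shared their sign in 62.5%. For these pairs the 90th percentile was 0.35 and the Pearson correlation 0.18. The pairs of *hep* and *bsk* differed by 0.01 to 0.09, and *Atf3* was analysed here from 1 clone.

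Markers of cell and tissue types were read as ratios, since these arrays give no level from which a tissue's presence in the embryos could be checked. Among 12 haemocyte markers 0 passed (median 0.02; 3 of 16 probes at an unadjusted p under 0.05 in limma), and *NimC1* had means of 0.39, 0.12 and −0.19 at 3 spots of its clone and *Fer3* −0.16. Among 6 muscle markers 1 of 6 probes of *Msp300* was past the threshold, low at −0.40, while its other probes ran from −0.47 to 0.34. The muscle median was 0.08, and 4 of the 6 gene means were positive. Of 18 muscle probes 9 were at an unadjusted p under 0.05 in limma, against 18.4% of all probes. The same 18.4% is the background for the other marker lists. Among 6 yolk and fat body markers *Fbp2* (−0.48) and *Yp2* (−0.40) were past the threshold with a low ratio. Low calls of this kind were found for 1.2% of all genes. *Yp3* had 0.40 and 0.13 at its 2 clones, both of the RH library, *Lsp2* had 0.25 and *Fbp1* 0.12. *Yp1* had −0.09 and −0.22 at 2 spots of its clone, which were opposite in sign on every array. The median was −0.02, with 4 of 8 probes at an unadjusted p under 0.05 in limma. Among 8 neuron and glia markers 0 passed (median −0.10; 2 of 8 probes at an unadjusted p under 0.05), with *jeb* at −0.57 and *Rdl* at −0.33. Only 1 of these 8 gene means was positive, against 4117 of all 8247. The clones of *jeb*, *Rdl*, *Appl*, *nSyb* and *repo* are from the GH library, which held 51.2% of the low calls. Those of *elav*, *brp* and *futsch* are from other libraries. The part of the library in these ratios was not tested. Among 10 epidermal and cuticle markers 0 passed (2 of 13 probes at an unadjusted p under 0.05), with *Ddc* at −0.24 and *shg* at −0.39. Of these 10 genes 7 had a positive mean, up to 0.54 for *Cpr56F* (0.95, −0.63 and 1.30 from array A to array C). Their median was 0.09, and by array it was 0.20 (A), −0.23 (B) and 0.01 (C). *Cpr56F*, and the yolk and fat body markers other than *Fbp2* and *Yp2*, were named with their values in view. The part of these tissues in the *Atf3* result was not tested. Nor was it examined whether each listed gene, such as *jeb* or *Fer3*, marks its tissue alone in the embryo.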

How the data were processed

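The deposited table gave 1 value for each of 12144 rows and 3 arrays. Every value was negative, with a median near −1 on each array and a highest value of −0.01. It was read as a linear ratio with a minus sign, already normalized in the deposited file and floored at 0.01. This reading is inferred from the values. The labels name no scanner, background correction or normalization. RNA was extracted with Trizol and RNeasy columns and labelled by amino-allyl reverse transcription, per the labels.

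The sign was removed and log2 taken. Control spots (128 plant, 32 fly genomic) were left out, and 97 of the other 11984 probes lacked a value on some array. The remaining 11887 were fitted with an intercept in limma 3.58.1 under R 4.3.3 (prior SD 0.116, 3.38 prior degrees of freedom), with Benjamini-Hochberg adjustment over all of them and a threshold of 0.05. Errors are SDs over 3 arrays, whose number limits the precision. An exact sign-flip test of 3 arrays cannot go below p = 0.25. The fit was tested on simulated data.

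Gene names came from the platform annotation, updated by Entrez identifier through a RefSeq table of Release 6 plus ISO1 MT. Of probes with 1 symbol 9746 matched and 171 kept the older name. Positions are not printed, since no label names the build behind the array. The genes and lists were chosen with earlier results of these data known. From each further list the genes with a probe past the threshold were named, or otherwise the 2 with the smallest p. Alternatives left out each array in turn, weighted arrays, centred, scaled or quantile-normalized them, or changed the moderation, the threshold, the scale, the probes and control spots tested, the handling of missing and floor values, the centring of clone libraries and the use of gene means.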

Additional observations from a re-analysis of the deposited data

Results flagged for a closer look

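Spots named for plant genes, which the comparisons leave out, had mostly low ratios. Their median log2 ratio was −0.23, with medians of −0.35 (array A), −0.22 (array B) and −0.16 (array C). Of 119 such spots with 3 values, 100 had a mean below 0. Means of the 32 fly genomic spots were all below 0, with −0.19 as their median. No group held enough arrays for a test of single outlying arrays.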

How the results depend on the processing

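Against 61 high and 123 low calls, 1 of the 13 probes and 3 genes of the other lists, array weights gave 184 high, 257 low and 6 list genes, and an adjusted p of 0.10 gave 300, 383 and 6. Keeping control spots gave 40 high calls, and testing only probes with 1 symbol 26 high and 65 low. The linear ratio gave 0 high and 0 low (2168 probes at an unadjusted p under 0.05) and centred clone libraries 0 and 0 (2203), with 0 list genes each. Gene means gave 1 list gene. Leaving out an array gave 0 to 1 high calls, 0 to 0 low calls, 0 to 0 of the 13 probes and 0 to 0 list genes, with 1307 to 2376 probes at an unadjusted p under 0.05 in limma. Of the 13 probes, 0 passed with quantile normalization, control spots kept, the linear ratio, probes with 1 symbol tested and clone libraries centred, where *Atf3* had limma adjusted p-values of 0.0509, 0.0517, 0.0637, 0.0501 and 0.0614. Among the 13 probes, signs turned for uncalled probes near 0. *kay* was at 0.0013 with quantile normalization and 0.017 with array weights, and *bsk* HL02677 at −0.0050 with array weights. With 1 array left out, *kay* ranged from −0.055 to 0.060, *bsk* HL02677 from −0.025 to 0.027, *hep* LD46661 from −0.024 to 0.057, *hep* RE25570 from −0.011 to 0.075 and *Jra* from −0.093 to 0.0089. On the log2 scale the list medians ranged from 0.0079 to 0.043 for upstream genes, −0.00047 (without array B) to 0.039 for inhibitors, 0.030 to 0.089 for JNK-responsive genes, 0.013 to 0.083 for bZIP factors, 0.068 to 0.10 for ETS factors, −0.042 to 0.012 for other MAP kinases and −0.028 to −0.0010 for the 10 genes. The cause of these changes was not tested. The number of arrays and the unknown spot brightness limit what could be detected. There is 1 group of arrays, so no pairing applies.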

Other observations

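Several of the 10 genes overlap another gene in the RefSeq table, judged by start and end positions only. A cDNA spot reads both strands, so the signals of such partners may not be separate where their transcripts share sequence. Whether they do was not examined. *fig*, which overlaps *kay*, had 0.12, 0.26 and 0.10 from array A to array C, positive each time, whereas *kay* crossed 0. *RpLP0-like*, which overlaps *Jra*, had −0.24, −0.13 and −0.21. *nAChRbeta3*, a nicotinic receptor subunit gene that overlaps *Ets21C*, had 0.15, 0.08 and 0.02, the same sign as *Ets21C* on every array. *CG2278*, which overlaps *slpr*, had −0.53, 0.10 and −0.25. *Atf3*, *hep*, *bsk* and *msn* overlapped no other gene of that table.

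*egr* and *Jra* lie close together on the chromosome, with 2 protein-coding genes between them in that table. Of these, *sut4*, a sugar transporter gene, had −0.53, −0.50 and −0.20, and *CG2269* had 0.14, 0.04 and 0.31, so no common direction ran through the 4 neighbours.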
